A study of Mus musculus with 6 samples.

Results

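Class I major histocompatibility complex (MHC) molecules and the machinery that loads them with peptide were examined in E0771 cells, a mouse mammary adenocarcinoma line of C57BL/6 origin, by 10 genes matched by their exact symbol. These were the heavy chains H2-K1 and H2-D1, the light chain B2m, the transporter subunits Tap1 and Tap2, the loading factor Tapbp, the immunoproteasome subunits Psmb8, Psmb9 and Psmb10, and the transcriptional activator Nlrc5. All 10 were among the 10520 genes of the count table, and all 10 passed the filter on low counts that left 8969 genes for testing. RNA was profiled by MARS-seq, a method that sequences the 3′ ends of transcripts and counts each molecule once by its unique molecular identifier (UMI), in 3 libraries of shControl cells and 3 of shLmna cells. shControl cells carried the empty pLKO.5-puro lentiviral vector, which holds no hairpin, and shLmna cells carried 1 hairpin construct against lamin A/C from the same MISSION collection. The titles of the shLmna libraries call the construct shRNA4. Both groups were selected with puromycin at 3 µg/ml, and the labels name no interferon treatment.

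In the class I pathway, the proteasome cuts cytosolic proteins into peptides, the TAP transporter carries them into the endoplasmic reticulum, and tapasin bridges TAP to a waiting pair of heavy chain and β2-microglobulin until a peptide binds. The loaded complex then travels to the cell surface, where CD8 T cells read it and natural killer cells sense its loss. Interferon-γ is the classical inducer of the pathway: it exchanges the constitutive catalytic subunits of the proteasome for the immunoproteasome subunits and raises NLRC5, which acts at the promoters of heavy chains, B2m and several processing genes. In carcinoma cells the pathway is known for being lowered in tumors that escape T cells.

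Levels are given as CPM, the counts-per-million scale of UMIs after TMM normalization of library size. The libraries held 1846208 to 3242051 UMIs, of which the 10 genes took 0.224 to 0.263% in shControl cells and 0.209 to 0.254% in shLmna cells. The targeted gene, Lmna, had 2066, 2794 and 1764 UMIs in shControl replicates 1 to 3 and 1035, 1023 and 713 in shLmna replicates 1 to 3, and its log2 fold change was −1.20 (SE 0.13, adjusted p = 3.5e-05, edgeR's quasi-likelihood test, adjusted by Benjamini-Hochberg over all genes tested). The labels do not say that replicates came from separate cultures, so p-values measure the spread between these libraries, which may be technical. The shControl libraries stood in plate positions 13 to 15 and the shLmna libraries in positions 16 to 18, so that position and group cannot be told apart. Of the markers of other cell types, the summed leukocyte markers ran from 283 to 333 CPM in shControl and from 332 to 395 in shLmna cells, ranges that overlapped; most of these UMIs came from Laptm5, and Ptprc, Cd3e, Itgam, Adgre1 and Tyrobp had no row in the count table used here. The lysozyme gene Lyz2 rose (10, 23 and 13 UMIs in shControl and 42, 35 and 29 in shLmna replicates, log2 fold change 1.28, adjusted p = 0.0110, edgeR, and 0.0520 without shControl replicate 1), whereas Laptm5 (log2 fold change 0.17, adjusted p = 0.448) and the macrophage marker Cd68 (−0.62, adjusted p = 0.234) did not pass. Summed fibroblast markers ran from 5.94 to 8.63 CPM in shControl and from 13.6 to 18.1 in shLmna cells, and the epithelial markers from 266 to 323 and from 288 to 316. Of the fibroblast markers, Col3a1 had 0, 0 and 0 UMIs in shControl and 13, 12 and 12 in shLmna replicates (adjusted p = 0.000511, edgeR). No fold is given against counts of 0. Pdgfra had 15, 17 and 8 UMIs in shControl and 13, 16 and 10 in shLmna replicates (log2 fold change 0.04, adjusted p = 0.958, edgeR). Col1a1 and Col1a2 were not tested. Fewer cells of a type and less RNA per cell cannot be told apart in these bulk samples, and the part of the leukocyte and fibroblast markers in the values below was not tested.

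In shLmna cells 3 of the genes rose, the immunoproteasome subunits Psmb9 and Psmb8 and the transporter subunit Tap1, and no gene of the 10 fell. Of all genes tested, 13.7% passed the same threshold, an adjusted p below 0.05 over the 8969 genes by edgeR's quasi-likelihood test, with 7.96% higher and 5.78% lower in shLmna cells. DESeq2 and limma-voom likewise called 3 of the 10 higher and 0 lower, and by edgeR 3 were higher and 1, B2m, lower at an unadjusted p under 0.05, a level that 28.4% of all genes reached. With 1 library left out, Psmb9 alone was higher without shControl replicate 1, shControl replicate 2 or shLmna replicate 1, 2 genes were higher without shLmna replicate 2 or 3, and 1 gene, B2m, was lower without replicate 3 of either group. The stricter criteria of the study added an absolute log2 fold change above 1 and a mean normalized count above 5, and they left Psmb9 alone of the 10, against 5.71% of all genes. The 3 shControl and 3 shLmna values did not overlap for 4 of the 10, Psmb9, Psmb8 and Tap1 higher and H2-K1 lower, whereas 32.5% of all genes had groups without overlap. The median log2 fold change of the 10 genes was 0.11, beside 0.0033 for all genes tested. The plot of the genes by library shows these values.

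**Figure D1:**
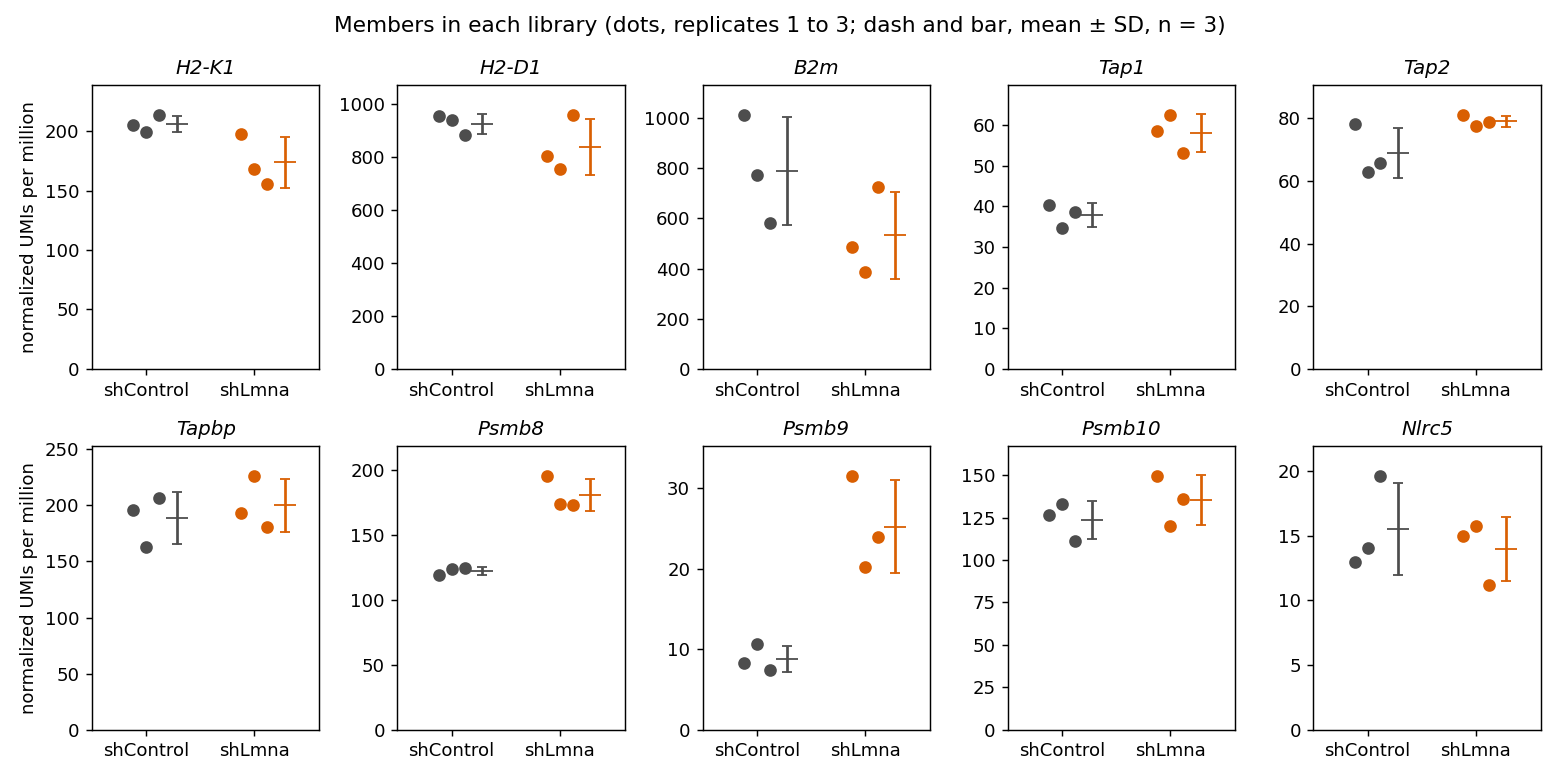
Normalized CPM (vertical axes, each from 0) of the 10 class I genes in 3 shControl (grey) and 3 shLmna (orange) libraries, with dots for replicates 1 to 3 and the dash and bar for mean ± SD (n = 3). The shLmna dots lie above every shControl dot for Psmb9, Psmb8 and Tap1, below for H2-K1, and the groups overlap in the other 6 panels.

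The heavy and light chains, which held the highest levels in shControl cells, did not pass the test. H2-K1, a classical heavy chain that presents peptide to CD8 T cells, had 524, 638 and 402 UMIs in shControl replicates 1 to 3 and 527, 459 and 292 in shLmna replicates. After normalization its level was 206 ± 6.91 CPM (SD, n = 3) in shControl and 174 ± 21.6 in shLmna cells. Each shLmna value lay under each shControl value, with replicate 1 of shLmna closest to the controls. The log2 fold change was −0.24 (SE 0.14, 95% interval −0.54 to 0.06, adjusted p = 0.28, edgeR). H2-D1, the other classical heavy chain, had 2439, 3009 and 1664 UMIs in shControl and 2145, 2064 and 1803 in shLmna replicates. Its normalized level was 927 ± 38.8 CPM in shControl and 840 ± 105 in shLmna cells, and the groups overlapped because shLmna replicate 3 was as high as the highest control. The log2 fold change was −0.14 (95% interval −0.44 to 0.15, adjusted p = 0.542, edgeR). The heavy chains are close relatives in sequence. Of the 50-base words in the 3′ ends counted here, 9.57% of those of H2-K1 also occurred in H2-D1, and 5.68% of those of H2-D1 in H2-K1. The division of UMIs between paralogs is therefore uncertain. Any other gene, related or not, held 11.4% of the words of H2-K1 and 14.8% of those of H2-D1.

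B2m, which encodes the β2-microglobulin light chain that every class I heavy chain needs, was the most variable of the abundant genes. It had 2578, 2478 and 1094 UMIs in shControl replicates 1 to 3 and 1297, 1055 and 1361 in shLmna replicates. Its normalized levels were 1011, 775 and 580 CPM in shControl and 486, 387 and 724 in shLmna cells. Replicate 3 of shControl was the lowest control and replicate 3 of shLmna the highest knockdown value, and these libraries crossed. The coefficient of variation was 27.3% in shControl and 32.5% in shLmna cells, and the log2 fold change of −0.57 (SE 0.22, 95% interval −1.04 to −0.10) had an unadjusted p of 0.0215 and an adjusted p of 0.103 by edgeR's quasi-likelihood test. Without shControl replicate 3 the log2 fold change was −0.76 with an adjusted p of 0.0126, and without shLmna replicate 3 it was −0.85 with an adjusted p of 0.0450, so that the call rested on which library was kept. The ratio of heavy chain to light chain UMIs (H2-K1 plus H2-D1, over B2m), a ratio chosen after the values were seen, was 1.15, 1.47 and 1.89 in shControl and 2.06, 2.39 and 1.54 in shLmna libraries, and overlapped.

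Of the peptide transporter, 1 of 2 subunits rose. Tap1 had 103, 111 and 73 UMIs in shControl replicates 1 to 3 and 156, 170 and 100 in shLmna replicates. Its normalized level was 37.9 ± 2.92 CPM (SD, n = 3) in shControl and 58.0 ± 4.63 in shLmna cells, and the lowest shLmna library lay well above the highest control. The difference was 1.54-fold (log2 fold change 0.62, SE 0.17, adjusted p = 0.0225, edgeR). With 1 library left out the adjusted p ranged from 0.0257 to 0.131 and passed only when shControl replicate 3 was the library left out, while the log2 fold change stayed between 0.55 and 0.68; it was 0.131 without shControl replicate 2 and between 0.0509 and 0.0869 without each of the other 4. Tap2, the partner subunit with which TAP1 forms the transporter, had 199, 201 and 124 UMIs in shControl and 216, 211 and 148 in shLmna replicates. Its normalized level was 68.9 ± 8.06 CPM in shControl and 79.0 ± 1.77 in shLmna cells, with shControl replicate 1 inside the range of the knockdown (log2 fold change 0.20, 95% interval −0.13 to 0.53, adjusted p = 0.43, edgeR). UMIs of Tap1 per UMI of Tap2, also chosen after the values were seen and therefore not tested, were 0.518, 0.552 and 0.589 in shControl and 0.722, 0.806 and 0.676 in shLmna libraries, and did not overlap.

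Tapbp, which encodes tapasin, had 500, 521 and 390 UMIs in shControl and 516, 616 and 340 in shLmna replicates. Its normalized level was 189 ± 22.9 CPM in shControl and 200 ± 23.4 in shLmna cells, and the groups lay across each other. The log2 fold change was 0.09 (SE 0.15, 95% interval −0.23 to 0.41, adjusted p = 0.742, edgeR), and its sign turned when shControl replicate 2 or shLmna replicate 2 was left out.

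Among the 3 immunoproteasome subunits, 2 rose and 1 did not pass the test. Psmb9, which encodes the β1i subunit LMP2, had the largest change of the 10 genes and also the fewest UMIs in shControl cells. It had 21, 34 and 14 UMIs in shControl replicates 1 to 3 and 84, 55 and 45 in shLmna replicates. In normalized units these were 8.2, 10.6 and 7.4 CPM in shControl and 31.5, 20.2 and 23.9 in shLmna cells. Every shLmna library had more than every shControl library, with shLmna replicate 1 the highest. The mean rose from 8.76 ± 1.67 to 25.2 ± 5.75 (SD, n = 3), a log2 fold change of 1.49 (SE 0.26, 95% interval 0.94 to 2.05, adjusted p = 0.00158, edgeR), which ranked 215 by p among the 8969 genes. It passed the test with any 1 library left out, with adjusted p-values from 0.00138 to 0.0143.

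Psmb8, which encodes the β5i subunit LMP7, had 303, 395 and 235 UMIs in shControl replicates 1 to 3 and 521, 473 and 326 in shLmna replicates. Its normalized level was 122 ± 3.09 CPM in shControl and 181 ± 12.6 in shLmna cells. The 3 controls were close together and the 3 knockdown libraries all lay above them. The difference was 1.48-fold (log2 fold change 0.56, SE 0.14, adjusted p = 0.0131, edgeR). The adjusted p was 0.0506 without shControl replicate 1, 0.0635 without shControl replicate 2 and 0.0579 without shLmna replicate 1, and Psmb8 passed without each of the other 3. Psmb10, which encodes the β2i subunit MECL-1, had 323, 425 and 210 UMIs in shControl and 399, 327 and 256 in shLmna replicates. Its level was 124 ± 11.05 CPM in shControl and 135 ± 14.8 in shLmna cells, groups that overlapped (log2 fold change 0.13, 95% interval −0.19 to 0.44, adjusted p = 0.623, edgeR).

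Nlrc5, the class I transactivator, was scarce in both groups. It had 33, 45 and 37 UMIs in shControl and 40, 43 and 21 in shLmna replicates, or 15.5 ± 3.58 and 13.98 ± 2.47 CPM. The groups overlapped, and the log2 fold change was −0.11 (SE 0.26, 95% interval −0.66 to 0.43, adjusted p = 0.826, edgeR). Its sign turned without shControl replicate 3 and without shLmna replicate 3, and the interval held changes of either sign.

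UMIs were counted in a window of fixed length at the 3′ end of each gene, so levels in CPM were ordered without division by transcript length. The annotated transcript of B2m (860 bases) is shorter than that window, whereas those of the other 9 fill it, so the place of B2m in the order is less certain. In shControl cells the order was H2-D1, B2m, H2-K1, Tapbp, Psmb10, Psmb8, Tap2, Tap1, Nlrc5 and Psmb9, and the neighbours H2-D1 and B2m, H2-K1 and Tapbp, and Psmb10 and Psmb8 overlapped in their replicate values. In shLmna cells Psmb8 stood above H2-K1 and Psmb10, though Psmb8 overlapped with both Tapbp and H2-K1. Psmb9 and Nlrc5 exchanged the last places: Psmb9 was the lowest in shControl cells and Nlrc5 in shLmna cells, where the highest Nlrc5 value, 15.8 CPM, lay under the lowest Psmb9 value, 20.2.

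The constitutive partners of the immunoproteasome subunits did not pass the test. The immunoproteasome subunits replace Psmb5, Psmb6 and Psmb7, the constitutive catalytic subunits, and the ratio of each pair was taken within a library, where normalization cancels. UMIs of Psmb9 were 0.616, 1.06 and 0.760% of those of Psmb6 in shControl replicates 1 to 3 and 3.05, 2.27 and 2.44% in shLmna replicates, so the groups lay apart and their mean log2 ratios differed by 1.69. UMIs of Psmb8 were 208, 185 and 126% of those of Psmb5 in shControl and 258, 227 and 310% in shLmna libraries, also apart, with a difference of 0.64 in log2. UMIs of Psmb10 were 32.4, 37.4 and 42.0% of those of Psmb7 in shControl and 59.1, 55.7 and 39.2% in shLmna libraries, which overlapped, with a difference of 0.45. A two-sided exact permutation test of the 3 ratios gave p = 0.1 for the first and the second (0.15 after Benjamini-Hochberg adjustment) and p = 0.2 for the third, and with 3 against 3 libraries the smallest p it can give is 0.1. The constitutive subunits had log2 fold changes of −0.08 for Psmb5 (95% interval −0.51 to 0.36, adjusted p = 0.848, edgeR), −0.19 for Psmb6 (adjusted p = 0.439) and −0.32 for Psmb7 (95% interval −0.71 to 0.08, adjusted p = 0.291).

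**Figure D2:**
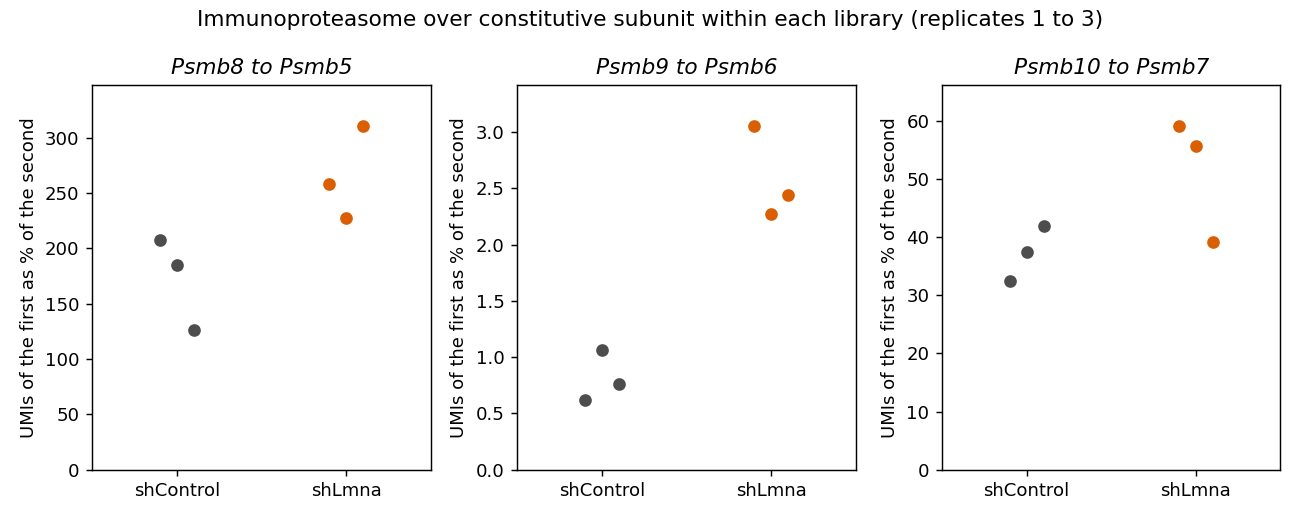
UMIs of each immunoproteasome subunit as a percent of the UMIs of the constitutive subunit it replaces (vertical axes, each from 0), 1 dot per library for replicates 1 to 3 of shControl (grey) and shLmna (orange). The shLmna dots lie above the shControl dots for Psmb9 to Psmb6 and Psmb8 to Psmb5, and shLmna replicate 3 (39.2%) falls between shControl values for Psmb10 to Psmb7.

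Proteasome activators bind the ends of the core particle. Of the 8 constitutive subunits, activators and the assembly factor Pomp that were tested, 2 rose and 0 fell by edgeR, DESeq2 and limma-voom. Of all genes, 7.96% were higher and 5.78% lower by edgeR. At an unadjusted p under 0.05 the counts were 3 and 0, a level that 28.4% of all genes reached by edgeR. The median log2 fold change of the 8 was 0.026. Psme1, which encodes the PA28α activator subunit that interferon-γ induces, had 517, 587 and 449 UMIs in shControl and 833, 815 and 593 in shLmna replicates. Its level rose from 208 ± 27.7 to 309 ± 8.55 CPM without overlap (log2 fold change 0.57, SE 0.14, adjusted p = 0.0143, edgeR), but the adjusted p ranged from 0.00489 to 0.0945 with 1 library left out and failed without shControl replicate 1, shControl replicate 2 or shLmna replicate 3. Its partner Psme2 had a log2 fold change of 0.35 (95% interval 0.05 to 0.65, adjusted p = 0.119), and Psme3, the nuclear activator PA28γ, of 0.13 (adjusted p = 0.583). Psme4, which encodes the PA200 activator known from spermatogenesis, had 1, 6 and 11 UMIs in shControl and 113, 101 and 70 in shLmna replicates (log2 fold change 3.99, SE 0.40, adjusted p = 1.9e-05, edgeR), which became 4.94 without shControl replicate 3 and 3.47 without shControl replicate 1.

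**Figure D3:**
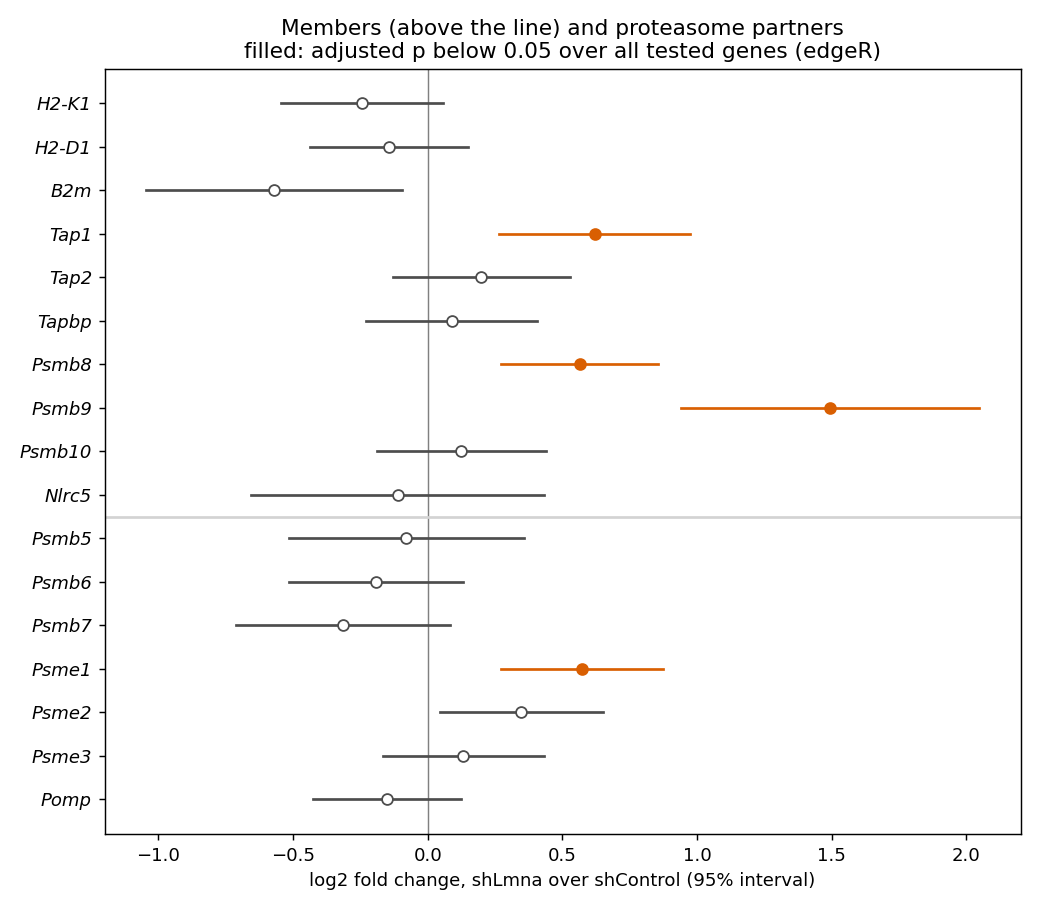
Log2 fold change of shLmna over shControl (horizontal axis, points) with 95% intervals (bars) from edgeR for the 10 class I genes, above the line, and for 7 proteasome genes, below it, with filled orange points for an adjusted p below 0.05. The intervals of Psmb9, Psmb8, Tap1 and Psme1 lie right of 0 and those points are filled, whereas those of Psme2, right of 0, and B2m, left of 0, also leave out 0 but have open points. Psme4 (log2 fold change 3.99) is off this scale and is not drawn.

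In the genome 7 of the 10 genes lie on chromosome 17, within the mouse MHC, in the mm10 (GRCm38) build. Tapbp starts the stretch at chr17:33915899-33929292, followed by H2-K1 at chr17:33996017-34000347 on the minus strand. Psmb9 (chr17:34181987-34187764, minus strand), Tap1 (chr17:34187553-34197225), Psmb8 (chr17:34197721-34201454) and Tap2 (chr17:34203527-34216321) are neighbours, and H2-D1 closes it at chr17:35262730-35267499. B2m is on chromosome 2 (chr2:122147686-122153083), and Psmb10 (chr8:105935735-105938444, minus strand) and Nlrc5 (chr8:94434356-94527272) are on chromosome 8. The 3 genes that rose, Psmb9, Tap1 and Psmb8, thus followed each other within 19.5 kb, and Tap2 beside them did not pass the test. The counted 3′ ends of Psmb8 and Tap2 overlap annotated transcripts on the opposite strand, Gm20496 and Gm15821. Of the other 44 tested genes between Tapbp and H2-D1, 3 rose and 7 fell, 22.7% beside the 13.7% of all genes given above, with a median log2 fold change of −0.076. The plot of the MHC region shows genes on both sides of 0. From H2-DMb1 to Rnf5, the stretch that holds the 3 genes that rose, every tested gene lay above 0. The ends of this stretch were set by those signs after the values were seen, so it tests nothing. Just before it lay H2-DMa (log2 fold change −0.64, adjusted p = 0.0490, edgeR) and Brd2 (−1.12, adjusted p = 0.000195), and just after it Agpat1 (−0.056). Of the genes of the stretch outside the class I genes, Pbx2 passed (log2 fold change 0.76, adjusted p = 0.0109, edgeR). H2-DMb1 (0.64), Gpsm3 (0.59) and Rnf5 (0.13) did not.

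**Figure D4:**
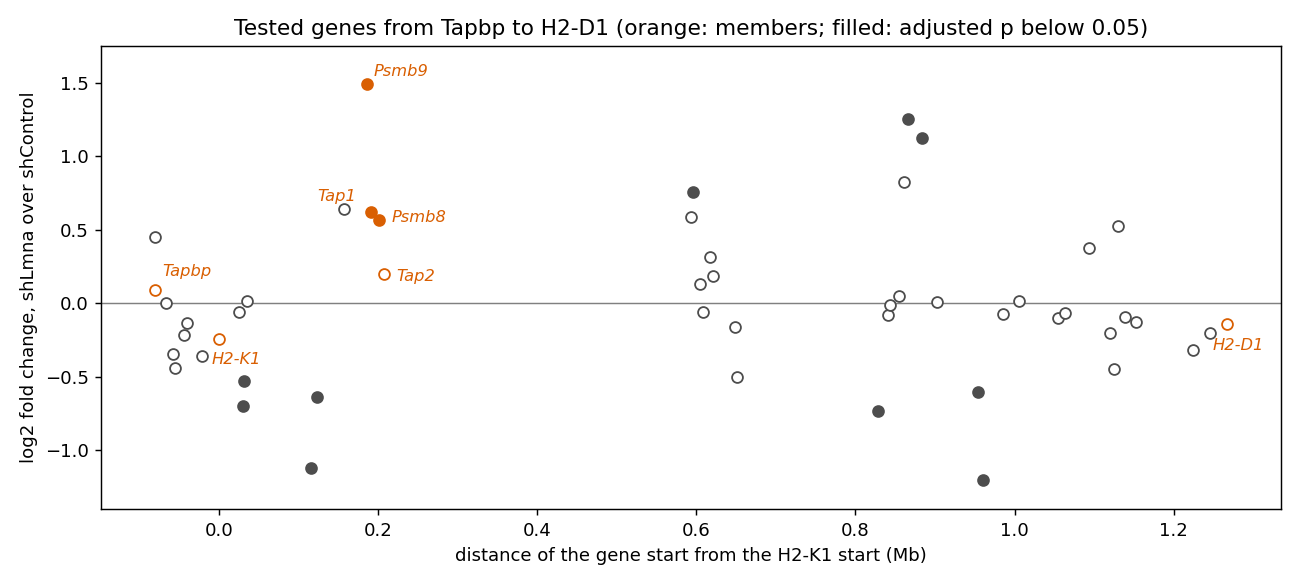
Log2 fold change of shLmna over shControl (vertical axis) of the tested genes from Tapbp to H2-D1 against the distance of the gene's start from that of H2-K1 (horizontal axis, Mb), with class I genes in orange and filled points for an adjusted p below 0.05. Psmb9, Tap1 and Psmb8 sit together near 0.2 Mb at 1.49, 0.62 and 0.56, while the heavy chains at the left and right lie just under 0 with open points.

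The promoters of the class I heavy chains and B2m are known for a shared module of X and Y boxes at a fixed distance, the site through which NLRC5 acts. RefSeq promoter windows of the GRCm38.p6 assembly, from 250 bases before to 50 after the start, were found for 8 of the 10 genes, all but Tap2 and Nlrc5. The 5 short motifs below were searched on both strands. TGACG, the core of the X2 box and of cyclic AMP response elements, was in 20.8% of the 32851 windows of all genes and in those of H2-K1, H2-D1, B2m, Tap1 and Psmb9. ATTGG, the Y box or inverted CCAAT box, was in 37.4% of all windows and in those same 5 plus that of Tapbp. The windows of Tapbp, Psmb8 and Psmb10 held no TGACG, and of these genes only Psmb8 passed the test. A link between the motifs and the calls was not tested. The stretches of H2-K1, H2-D1, B2m and Tap1 that start with TGACG are printed here 5′ to 3′ on the strand named, with capitals for TGACG and ATTGG. They lie at chr17:34000359-34000388 (minus strand, H2-K1), chr17:35262993-35263022 (plus, H2-D1), chr2:122147609-122147638 (plus, B2m) and chr17:34187470-34187499 (plus, Tap1).
H2-K1: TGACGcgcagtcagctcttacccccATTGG
H2-D1: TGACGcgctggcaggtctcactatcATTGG
B2m: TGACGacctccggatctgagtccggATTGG
Tap1: TGACGacagagggtcctgccctcaatctgg

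In H2-K1, H2-D1 and B2m the pair stood in the same order with 20 bases between, and in the Tap1 stretch ATTGG was absent at that distance. That spacing was chosen after the sequences were seen. Of all 32851 windows, 31 (0.0944%) held the pair so spaced. They belonged to 27 genes, of which 18 were tested. Of the 18, 1 passed the test, beside 13.7% of all genes tested. It was Nfe2l1 (named after its values were seen, log2 fold change 0.58, adjusted p = 0.0129, edgeR). The 18 include H2-K1, H2-D1 and B2m, from which the spacing was taken and which were known not to pass. The count therefore tests nothing about genes with the pair. By the RefSeq starts used for the windows, Tap1 and Psmb9 are transcribed away from each other from starts 226 bases apart. Their windows therefore share 275 bases, and the TGACG shown for Tap1 is the same one that Psmb9 has. In the gene spans printed above, from another annotation, Psmb9 reaches to 34187764 and Tap1 begins at 34187553. Those spans overlap, so the start of Psmb9, and with it its window, depends on the annotation. The κB-like motif, GGGA and CC with 4 bases between (20.7% of all windows) and the interferon response element-like TTTCNNTT (23.9%) each occurred in H2-K1, H2-D1 and B2m and in none of the other 5, and the κB-like matches on the opposite strands overlap at 1 site in each of the 3. The γ-activated site-like TTCNNNGAA (8.30%) occurred in Psmb8 alone of the 8. A match is a description of the sequence and no evidence of binding.

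Other genes of the pathway were taken from lists of its steps. For comparison, 7.96% of all genes were higher and 5.78% lower by edgeR, and 28.4% reached an unadjusted p under 0.05. Beside the classical heavy chains, 5 of 27 listed class I heavy chains were in the count table and 4 were tested, of which 0 passed by edgeR, by DESeq2, by limma-voom or at an unadjusted p under 0.05 (median log2 fold change −0.21). H2-M3, which presents formylated peptides, had 69, 60 and 30 UMIs in shControl and 81, 53 and 41 in shLmna replicates (log2 fold change 0.21, adjusted p = 0.629, edgeR). H2-K2 had a log2 fold change of −0.36 (adjusted p = 0.456). Of 15 tested genes of peptide loading and folding in the endoplasmic reticulum, 1 rose and 0 fell (2 and 1 at an unadjusted p under 0.05, with the same counts by DESeq2 and limma-voom). The riser, Ero1l, an oxidase that renews disulfide bonds through protein disulfide isomerase, had 0, 2 and 5 UMIs in shControl and 23, 28 and 30 in shLmna replicates (log2 fold change 3.54, SE 0.60, adjusted p = 0.00114, edgeR). With so few control UMIs the size is uncertain, and it was 4.84 without shControl replicate 3 and 2.95 without shControl replicate 1. Calr, a chaperone of the loading complex, had a log2 fold change of −0.31 (adjusted p = 0.132) and Pdia6 of 0.0049 (adjusted p = 0.988).

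Peptidases trim or destroy peptides in the cytosol. Of 11 tested, 0 rose and 1 fell by each of the 3 tools (1 and 3 at an unadjusted p under 0.05 by edgeR). Among all genes 13.7% passed the test and 28.4% reached that unadjusted level by edgeR. The gene that fell was Prep, prolyl endopeptidase, which cleaves short peptides after proline (log2 fold change −0.52, SE 0.14, adjusted p = 0.0212, edgeR), and its adjusted p rose to between 0.0506 and 0.0908 without shControl replicate 1 or 2 or shLmna replicate 2 or 3. When counts were corrected for GC content, Prep had a log2 fold change of −0.98 (adjusted p = 0.00111, edgeR), so its size depended on that correction. The most abundant of the others, Lap3 and Xpnpep1, had log2 fold changes of −0.18 and −0.097.

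Transcription factors and cofactors of class I genes numbered 21 tested, of which 1 rose and 0 fell by each of the 3 tools (4 and 0 at an unadjusted p under 0.05 by edgeR). For this list and the next, the shares over all genes by edgeR were 13.7% past the test and 28.4% at that unadjusted level. Kat2b, a histone acetyltransferase, had 0, 1 and 2 UMIs in shControl and 17, 27 and 16 in shLmna replicates (adjusted p = 0.000366, edgeR), and no fold is given against so few. Rela, the NF-κB subunit, had a log2 fold change of −0.16 (adjusted p = 0.536), and Ezh2, the Polycomb methyltransferase, of 0.11. Of 14 interferon receptor and JAK pathway genes, 0 rose and 0 fell by edgeR, DESeq2 and limma-voom, with 1 and 1 at an unadjusted p under 0.05 by edgeR. Jak1 had a log2 fold change of 0.34 (adjusted p = 0.199). Ptpn2, a phosphatase that dampens JAK signalling, had −0.22 (adjusted p = 0.415), which became −0.89 (adjusted p = 0.00388) when counts were corrected for GC content.

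Interferon-inducible genes outside the class I pathway held both directions. Of 28 tested, 9 fell and 2, Ly6e and Ifit2 (named after their values were seen), rose by edgeR, beside 5.78% lower and 7.96% higher of all genes, with a median log2 fold change of −0.23. DESeq2 called 8 lower and 1 higher, and limma-voom 10 and 2. The chemokines Ccl5 and Cxcl10 fell, with log2 fold changes of −3.48 (adjusted p = 3.6e-08) and −2.97 (adjusted p = 2.7e-06), and so did the antiviral genes Oasl1 (−1.80, adjusted p = 3.6e-05) and Rsad2 (−3.44, adjusted p = 0.000631), by edgeR. Rsad2 had only 18, 45 and 21 UMIs in shControl and 3, 4 and 0 in shLmna replicates, so the size of its fall is uncertain. With 1 library left out it ran from −3.95 to −3.01. Isg15, a ubiquitin-like modifier, had 322, 374 and 250 UMIs in shControl and 184, 222 and 78 in shLmna replicates, and fell from 125 ± 7.89 to 64.0 ± 20.5 CPM (log2 fold change −0.95, SE 0.20, adjusted p = 0.00599, edgeR). Bst2 and Ifi27, the most abundant of those that did not pass, had log2 fold changes of −0.36 (adjusted p = 0.149) and 0.12. Across the 9 lists of pathway genes, 111 were tested, 8 rose and 12 fell, beside 7.96% higher and 5.78% lower of all genes, with a median log2 fold change of −0.051. Of the 12 that fell, 9 were the interferon-inducible genes counted above.

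**Figure D5:**
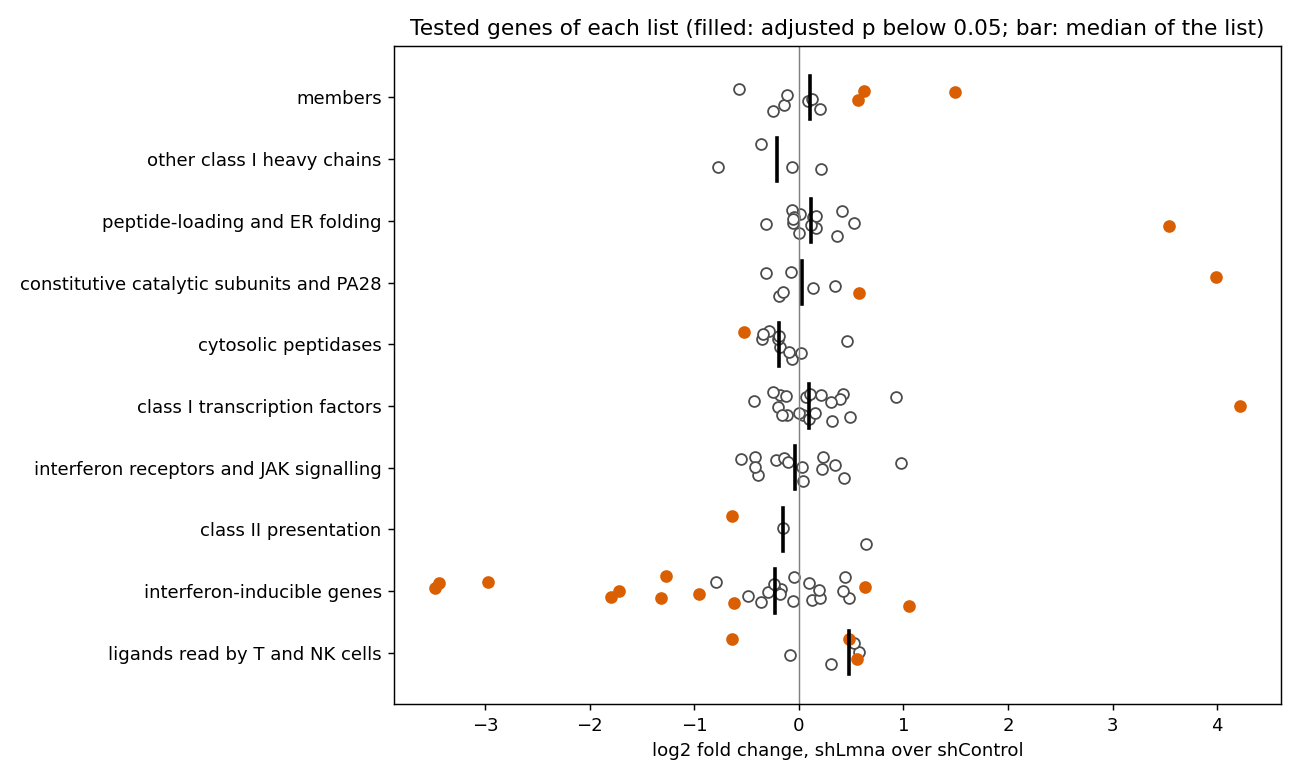
Log2 fold change of shLmna over shControl (horizontal axis) of each tested gene (points) in the class I genes and 9 lists of related genes (rows), filled where the adjusted p was below 0.05, with a bar at the list's median. The class I genes spread from −0.57 to 1.49 around a median of 0.11, and the interferon-inducible genes hold 9 filled points left of 0 and 2 right of it. The point of Kat2b beyond 4 rests on control counts of 0, 1 and 2 UMIs.

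The profiles of the 10 genes differed among themselves. On log2 levels centred on each gene's mean over the 6 libraries, the genes whose profile was closest to the mean profile of the 10 were Mri1, Commd1, Fkbp10, Trak1 and Ldb1, at root mean square distances of 0.0311 to 0.0446. These were picked as the closest of all other tested genes with a mean count of at least 50 UMIs. Larger distances for the members were therefore nearly fixed in advance, and the comparison tests nothing. The members' own distances ran from 0.0761 for Tap2 and 0.0931 for Psmb10 to 0.509 for B2m and 0.668 for Psmb9. The average of the 10 genes was therefore a poor description of Psmb9 and B2m, which lay on opposite sides of it.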

How the data were processed

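Raw UMI counts per gene, whole numbers as deposited by the authors, were used for 6 MARS-seq libraries. Per the labels and the study's methods, reads were trimmed with Cutadapt, aligned to mm10 with STAR 2.4.2a and counted with a modified HTSeq-count over the 3′ end of RefSeq genes. UMIs limit amplification bias but not sampling error. Every gene of the table reached 6 UMIs in some library. The authors' batch-adjusted log2 values, and their DESeq2 table of mean normalized counts, fold changes and p-values, were not used.

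Counts were fitted with edgeR 4.0.16 (R 4.3.3; quasi-likelihood F test, TMM, filterByExpr with a minimum count of 10) over all genes, shLmna against shControl, with Benjamini-Hochberg adjustment and a threshold of 0.05. Fold changes have shLmna as numerator. The fits were tested on simulated data. Alternatives were DESeq2 1.42.0, limma-voom 3.58.1, other normalizations and filters, a replicate block, a loess correction for GC content, and leaving out each library.

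The members and lists were chosen with earlier results of these data known. Of each list, genes past the test, up to 5 by p, and the 2 most abundant others were named. Positions and GC content came from GENCODE M21.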

Additional observations from a re-analysis of the deposited data

How the results depend on the processing

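Psmb9, Psmb8 and Tap1 passed and the other 7 class I genes did not under DESeq2 and limma-voom, under RLE and upper-quartile normalization, without a filter, and with the replicate block, GC correction or both. A filter at a mean count of 50 left Psmb9 and Nlrc5 untested, and Psmb8 and Tap1 passed. The replicate numbers did not pair the libraries (correlations of same-numbered deviations 0.35, −0.11 and 0.0052). The replicate block gave 773 higher and 577 lower genes and 3 class I genes higher, with Tap1 at 0.62 (adjusted p = 0.0249, edgeR), and changed no call of the 10. GC correction gave 728 higher and 775 lower genes, with the block 660 and 733, against 714 and 518, so the share of higher genes depended on it; with it Psmb9 was 1.51, Psmb8 0.55, Tap1 0.65 and B2m −0.66 (adjusted p = 0.0654). Median GC content of the counted ends was 53.2% for the class I genes and 47.1% for all. A mean count of at least 50 gave 425 higher genes, 158 by the study's criteria and 7 pathway genes lower.

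With 1 library left out, which gives an arm of 2 libraries whose spread is pooled with the other arm, 353 to 882 genes were higher, 187 to 698 lower and 346 to 654 passed the study's criteria. Of the class I genes 1 to 3 were higher and 0 to 1 lower, and of pathway genes 4 to 10 and 6 to 13. Log2 fold changes ran from 0.55 to 0.68 for Tap1, 0.49 to 0.60 for Psmb8 and −0.85 to −0.36 for B2m. Signs turned for genes that did not pass: Tapbp (−0.0107 to 0.16), Nlrc5 (−0.24 to 0.0562), H2-M3 (−0.0266 to 0.44), Pdia6 (−0.11 to 0.0808), Xpnpep1 (−0.20 to 0.0284), Icam1 (−0.32 to 0.14), Krt8 (−0.00699 to 0.12), Psmb5 (−0.25 to 0.16), Ifi27 (−0.00718 to 0.20) and Pdgfra (−0.0663 to 0.13). Pdia6 was also −0.000568 under DESeq2, −0.000763 under RLE and −0.00208 without a filter, and Pdgfra −0.109 with GC correction and −0.107 with GC correction and block. The cause of these changes was not tested.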

Other observations

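A list of ligands read by T cells and natural killer cells, beside class I itself, had 7 of its 20 genes tested. The list also holds Cd47, which acts on phagocytes. By edgeR 2 of the 7 rose and 1 fell, beside 7.96% higher and 5.78% lower of all genes, with a median log2 fold change of 0.48. DESeq2 called 2 higher and 1 lower, and limma-voom 1 and 1. Lgals9, the galectin that binds TIM-3, had a log2 fold change of 0.48 (adjusted p = 0.0313), and its adjusted p ran from 0.0523 to 0.101 with each single library left out. Cd47, a ligand that restrains phagocytes, had 0.56 (adjusted p = 0.0411), but 0.13 (adjusted p = 0.654) with GC correction, and it lost the call by limma-voom, without a filter, and without shControl replicate 1 or 2 or shLmna replicate 1 or 3, at 0.34 (adjusted p = 0.19) in the last of these. Pvr, a ligand of the activating receptor DNAM-1 and of TIGIT, had −0.64 (SE 0.16, adjusted p = 0.0138), with an adjusted p of 0.0597 without shControl replicate 2 and 0.0739 without shLmna replicate 2. Pvrl2 and the adhesion molecule Icam1 had 0.31 and −0.08 and did not pass.

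Class II presentation was little represented. Of 13 listed genes, 4 were in the count table and 3 were tested. H2-DMa, one chain of the class II peptide editor, had a log2 fold change of −0.64 (SE 0.20, adjusted p = 0.0490, edgeR), with an adjusted p of 0.0684 by DESeq2, 0.0589 without a filter and 0.0569 at a mean count of at least 50, and 0.139 to 0.192 without shControl replicate 1 or 2 or shLmna replicate 2 or 3, whereas its partner H2-DMb1 had 0.64 (adjusted p = 0.0671, and 0.0352 with GC correction). Ifi30, a lysosomal thiol reductase, had −0.15. The invariant chain Cd74 had 3, 13 and 2 UMIs in shControl and 1, 3 and 3 in shLmna replicates. Epcam, an epithelial marker, had −0.90 (adjusted p = 0.0909, and −1.50 with 0.0137 without shLmna replicate 2) and the keratin Krt8 0.07 (adjusted p = 0.776).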
